A study of Mus musculus with 8 samples.

Results

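Cytokine receptors carry the signals that keep haematopoietic stem cells (HSC) alive and push their progeny into one blood lineage or another. The 9 receptor genes Kit, Epor, Csf1r, Csf2ra, Csf2rb, Csf3r, Il3ra, Il6ra and Il1rl1 were chosen by name, with earlier results of these data known. All 9 were found among the 32285 genes of the tables. Their raw UMIs (unique molecular identifiers, each counting 1 captured transcript) were followed in bone marrow haematopoietic stem and progenitor cells (HSPC) of 8 unmanipulated wild-type mice, which were sorted as lineage-negative and c-Kit positive and profiled by droplet single-cell RNA sequencing. Each library was 1 mouse. There was 1 male and 1 female at each age: young (14 weeks), middle-aged (50 weeks), old (78 weeks for the male, 79 weeks for the female) and very old (95 weeks). The old and very old mice together are called older mice, 4 against 2 young mice. The labels give no strain and name no transgene or treatment. With 1 mouse per age and sex, age could only be tested with the sexes pooled under a sex term. The c-Kit protein was itself a sorting criterion, so the level of Kit in these cells was set in part by the sort.

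After cells with under 200 detected genes were left out, 59136 of 59465 barcodes remained, with 83062003 to 150135029 UMIs per library and a median of 8505 to 14951 UMIs per cell. Pairs of libraries shared 6 to 27 barcodes. The cells fell into 28 clusters that were formed without the 9 receptors and without the other receptor, ligand and signalling genes examined here. Of these, 21 clusters were named from marker genes, and 7 clusters with 9284 cells stayed unnamed. The library names of both very old mice belong to a separate numbered series from the other 6, and the age of 95 weeks and that series cannot be told apart. Over the 81 combinations of a receptor and a cell class, the very old male had the lowest of the 8 levels in 28 and the middle-aged male in 27, whereas the middle-aged female had it in 0. These libraries are named beside some of the values that rest on them, but not beside every count of directions. Clusters 6, 8, 10 and 17 had a median depth of 0.226, 0.063, 0.187 and 0.295 of that of their samples. Cluster 10 is the whole megakaryocyte-erythroid progenitor-like (MEP-like) class, and its levels are given with that limit.

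Kit and Csf1r encode receptor tyrosine kinases, for stem cell factor and for macrophage colony-stimulating factor. Epor and Csf3r encode receptors that pair with themselves, for erythropoietin and for granulocyte colony-stimulating factor, and signal through JAK2 and STAT proteins. Csf2ra and Il3ra encode the ligand-binding alpha chains for GM-CSF and IL-3, and both need the beta chain of Csf2rb to signal. Il6ra encodes the IL-6 binding chain, which works with gp130 (Il6st), and Il1rl1 encodes ST2, the receptor of the alarmin IL-33, known from mast cells and basophils. In the mouse genome (GRCm38, GENCODE annotation) the genes other than Csf1r lie at chr5:75574916-75656722 (Kit), chr9:21958897-21963506 (Epor), chr19:61223957-61228429 (Csf2ra), chr15:78325752-78353847 (Csf2rb), chr4:126024550-126044440 (Csf3r), chr14:14346275-14356011 (Il3ra), chr3:89864059-89913196 (Il6ra) and chr1:40429570-40465415 (Il1rl1). The libraries read the 3′ ends of transcripts, so isoforms that share an end, such as transcripts from the 2 start sites of Il1rl1, were not separated.

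Promoter sequences from RefSeq (GRCm38.p6, 250 bases before to 50 bases after the start) were used for 7 of the 9 genes, with 9 promoters in all. Csf1r and Csf2rb had none in that table. Core letters of 2 factor families that act in different lineages were searched on both strands, AGATAA for the erythroid and mast cell GATA factors and GAGGAA for the myeloid factor PU.1. These 2 motifs do not overlap in their letters. Of 32851 promoters of the same length, 11.2% held the GATA letters and 28.3% the PU.1 letters. The promoters of 3 genes are shown, because these genes had their highest levels in different classes, as described below, 5′ to 3′ on the gene's strand, with the motif letters in capitals (chr9:21963527-21963826, minus strand, for Epor, chr4:126024409-126024708, plus strand, for Csf3r, and chr1:40429320-40429619 and chr1:40439379-40439678, plus strand, for the first and second starts of Il1rl1).
Epor: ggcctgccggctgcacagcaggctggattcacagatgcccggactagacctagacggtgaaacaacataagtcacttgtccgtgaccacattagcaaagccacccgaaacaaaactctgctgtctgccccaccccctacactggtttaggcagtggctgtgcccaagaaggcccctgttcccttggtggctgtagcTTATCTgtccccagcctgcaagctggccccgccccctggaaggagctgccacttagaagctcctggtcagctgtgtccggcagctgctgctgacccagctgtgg
Csf3r: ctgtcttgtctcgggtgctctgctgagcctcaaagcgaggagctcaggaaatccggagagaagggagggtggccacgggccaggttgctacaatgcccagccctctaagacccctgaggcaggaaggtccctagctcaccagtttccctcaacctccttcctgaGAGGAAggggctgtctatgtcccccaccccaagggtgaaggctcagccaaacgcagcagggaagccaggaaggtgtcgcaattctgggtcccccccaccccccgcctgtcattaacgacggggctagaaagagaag
Il1rl1, first start: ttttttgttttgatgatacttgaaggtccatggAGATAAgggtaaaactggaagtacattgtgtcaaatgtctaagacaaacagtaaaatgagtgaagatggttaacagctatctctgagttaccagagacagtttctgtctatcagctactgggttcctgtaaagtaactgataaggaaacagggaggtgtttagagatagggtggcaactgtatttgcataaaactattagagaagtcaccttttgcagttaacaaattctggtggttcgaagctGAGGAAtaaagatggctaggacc
Il1rl1, second start: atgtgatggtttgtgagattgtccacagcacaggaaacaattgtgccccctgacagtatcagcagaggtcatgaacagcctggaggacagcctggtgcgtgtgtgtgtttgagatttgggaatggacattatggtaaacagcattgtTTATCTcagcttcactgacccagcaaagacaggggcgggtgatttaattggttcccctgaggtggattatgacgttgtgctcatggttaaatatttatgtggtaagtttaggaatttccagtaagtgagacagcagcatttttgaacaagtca
The GATA letters began 54 bases before the start of Epor on the opposite strand, where they read TTATCT, 217 bases before the first start of Il1rl1, and 103 bases before its second start, again on the opposite strand. In Csf3r the PU.1 letters began 86 bases before the start, and the first Il1rl1 promoter held them 28 bases after its start. Among the promoters not shown, Il6ra held both motifs, Csf2ra held the PU.1 letters at 14 and 8 bases before its start, Kit held the PU.1 letters but not the GATA letters, and Il3ra held neither. These matches describe letters in a window and were not tested as binding sites.

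To see which cells carried each receptor, its UMIs were summed over the cells of a class in each mouse and scaled to all UMIs of that class as CPM, the usual scaling of counts to a fixed total. Means are over 8 mice with their SD, the sum of a class cannot separate fewer expressing cells from less RNA per cell, and class levels are descriptions with no test. Levels are compared between classes for 1 gene, and not between genes. The order of levels covers the 9 named classes with at least 50 cells in each mouse and leaves out a small macrophage-like cluster, whose values are given where they are above that order. Beside the CPM stands the share of cells with at least 1 UMI after each cell was thinned to 3000 UMIs, which 48937 cells reached and 10199 cells did not. Per mouse 5312 to 7590 cells reached it, and of the 2413 MEP-like cells only 577 did. Without thinning the mean share with a UMI in the highest class of each gene was 51.0% for Kit, 63.0% for Epor, 57.6% for Csf1r, 59.5% for Csf2ra, 54.1% for Csf2rb, 31.6% for Csf3r, 49.5% for Il3ra, 48.3% for Il6ra and 14.4% for Il1rl1.

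Kit was found in every class. In all cells its level was 96.7 CPM in the young male, 80.7 in the young female, 85.6 in the middle-aged male, 106 in the middle-aged female, 93.3 and 102 in the old male and female, and 90.9 and 95.3 in the very old male and female. These 8 values overlapped between all ages. The MEP-like class had 350 ± 32.6 CPM (SD, n = 8), above every other class in every mouse, and HSC-like cells followed at 172 ± 25.8 CPM. The ranges of neighbouring classes overlapped from there down, through multipotent progenitor-like (MPP-like) cells at 144 ± 17.5 CPM and basophil-mast cell progenitor-like cells at 132 ± 17.2 CPM to monocyte progenitor-like cells at 46.7 ± 8.84 CPM. In thinned cells the median share with a Kit UMI was 61.0% in the MEP-like class, 40.4% in HSC-like cells and 11.8% in monocyte progenitor-like cells. Without the low-depth clusters the MEP-like class was empty and HSC-like cells stood first.

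Epor marked the erythroid branch. Erythroid-like cells held 94.1 ± 13.9 CPM, with 97.6 in the young male, 106 in the young female, 76.9 and 86.8 in the middle-aged male and female, 78.1 and 86.5 in the old male and female, and 113 and 107 in the very old male and female. The middle-aged and old mice were thus below both the young and the very old mice. MEP-like cells followed at 55.1 ± 13.2 CPM without overlap, then megakaryocyte progenitor-like cells at 23.2 ± 3.77 CPM, and a further drop without overlap led to basophil-mast cell progenitor-like cells at 9.61 ± 3.29 CPM. HSC-like cells had 4.56 ± 1.25 CPM and monocyte progenitor-like cells 1.20 ± 0.604 CPM. In thinned cells an Epor UMI was found in a median of 24.4% of erythroid-like cells against 0.368% of monocyte progenitor-like cells, the lowest of the 9 classes in CPM. Where those few UMIs came from was not tested. Erythroid-like cells held 30.9% of all UMIs but 84.7% of those of Epor (medians over mice).

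Of the myeloid growth factor receptors, Csf1r (chr18:61100598-61132149) was the narrower by class. Monocyte progenitor-like cells had 41.7 ± 6.54 CPM, with the lowest value, 27.5, in the middle-aged male and all others between 38.3 and 47.5. Granulocyte progenitor-like cells had 9.83 ± 3.11 CPM, 4.25-fold below monocyte progenitor-like cells and without overlap. Within that class, however, the low-depth cluster 17 had 89.0 ± 30.2 CPM (40.8 to 130). Its mean was above those of monocyte progenitor-like clusters 5 and 13, 41.9 and 41.7 CPM. MPP-like and lymphoid progenitor-like cells followed at 6.66 ± 1.66 and 6.16 ± 2.84 CPM, and the other 5 classes were at 1.20 CPM or less. The share of thinned cells with a UMI was 11.8% in monocyte progenitor-like cells and 0.135% in erythroid-like cells. The macrophage-like cluster of 330 cells (12 to 108 per mouse) had 124 ± 97.2 CPM on 3 to 136 UMIs per mouse, too few for more than this description.

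Csf3r had a wider reach. MPP-like cells had the most at 43.9 ± 5.03 CPM, and lymphoid progenitor-like cells (34.3 CPM), granulocyte progenitor-like cells (34.0 CPM), HSC-like cells (31.5 CPM) and monocyte progenitor-like cells (21.2 CPM) overlapped each with the next. A gap without overlap separated these 5 classes from MEP-like cells at 8.95 CPM and, at the low end, erythroid-like cells at 1.62 CPM. After thinning, 12.3% of MPP-like cells and 0.442% of erythroid-like cells had a UMI. Levels in HSC-like, lymphoid progenitor-like and granulocyte progenitor-like cells overlapped over the mice.

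The 3 chains of the GM-CSF and IL-3 receptors had different distributions. Csf2rb, the shared signalling chain, was highest in basophil-mast cell progenitor-like cells at 82.9 ± 15.5 CPM (74.7 and 77.3 in the young male and female, 91.1 and 98.6 in the middle-aged, 102 and 83.7 in the old, 53.1 and 82.6 in the very old). The very old male was the lowest of these. MEP-like, monocyte progenitor-like, MPP-like and granulocyte progenitor-like cells overlapped at 27.6, 26.6, 25.8 and 20.6 CPM, and lymphoid progenitor-like cells at 12.2 CPM and HSC-like cells at 9.09 CPM lay below them. Il3ra, the IL-3 binding chain, was also highest in basophil-mast cell progenitor-like cells at 67.0 ± 8.21 CPM, without overlap with monocyte progenitor-like cells at 43.0 CPM, and was lowest in erythroid-like cells at 4.61 CPM, below all other classes in all mice. Csf2ra, the GM-CSF binding chain, was the flattest of the 3. It ranged from 66.3 ± 9.32 CPM in granulocyte progenitor-like cells to 14.7 ± 4.77 CPM in erythroid-like cells, every class overlapped with the next in order, and HSC-like cells stood in the middle at 41.2 CPM. The macrophage-like cluster, outside this order, had 97.8 ± 47.3 CPM of Csf2ra on 191 UMIs over the 8 mice.

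The mouse has a second beta chain gene, Csf2rb2, a near copy that serves IL-3 alone, and reads of the copies could be split between them by the counting. Csf2rb had 91.3% of the UMIs of both copies over all cells (median, range 88.6 to 92.8%). Its share was lower in HSC-like cells, with a median of 77.9%, in MEP-like cells, with 79.3%, in basophil-mast cell progenitor-like cells, with 81.8%, and in megakaryocyte progenitor-like cells, with 85.6%. Levels of Csf2rb in these classes therefore leave out more of the pair than the level over all cells does.

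Of the 9 classes, Il6ra was highest in monocyte progenitor-like cells at 29.2 ± 4.36 CPM, with 31.9 and 32.2 in the young male and female, 22.2 and 27.9 in the middle-aged, 31.7 and 35.4 in the old, and 26.5 and 25.5 in the very old. Lymphoid progenitor-like cells (19.8 CPM) and MPP-like cells (14.7 CPM) followed, HSC-like cells had 9.93 CPM and erythroid-like cells 0.701 CPM. A UMI was found in 8.43% of thinned monocyte progenitor-like cells and in 0.115% of thinned erythroid-like cells. Monocyte progenitor-like cells held 14.9% of all UMIs and 44.3% of those of Il6ra. The macrophage-like cluster, outside this order, had 66.6 ± 47.6 CPM on 133 UMIs over the 8 mice, with a UMI in a median of 23.9% of its thinned cells.

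Il1rl1 levels fell in steps. MEP-like cells at 71.8 ± 9.97 CPM and basophil-mast cell progenitor-like cells at 68.0 ± 11.6 CPM overlapped, erythroid-like cells had 26.6 ± 2.83 CPM, megakaryocyte progenitor-like cells 11.3 ± 3.32 CPM, and MPP-like cells 2.08 CPM, each without overlap with the one above. The other 4 of the 9 classes were at 1.46 CPM or less, and the macrophage-like cluster had 3.82 CPM on 9 UMIs. Erythroid-like cells, with 30.9% of all UMIs, gave 54.1% of those of Il1rl1, and basophil-mast cell progenitor-like cells, with 3.34% of all UMIs, gave 16.2%. In thinned cells a UMI was found in 17.3% of basophil-mast cell progenitor-like, 15.6% of MEP-like and 0.291% of granulocyte progenitor-like cells.

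**Figure D1:**
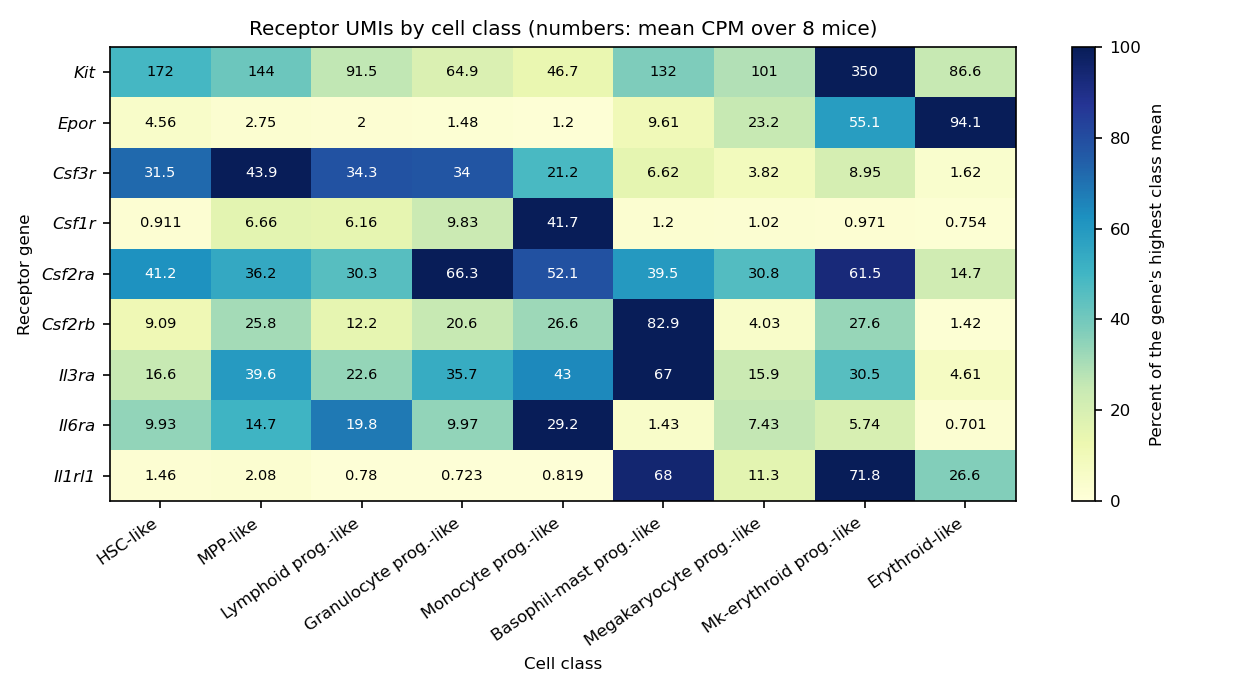
Mean level of the 9 receptor genes (rows) in 9 named cell classes (columns), with the mean CPM over 8 mice printed in each field and the colour giving it as a percent of the gene's highest class. Epor is highest in erythroid-like cells (94.1 CPM), Csf1r and Il6ra in monocyte progenitor-like cells (41.7 and 29.2 CPM), and Csf2rb and Il3ra in basophil-mast cell progenitor-like cells (82.9 and 67.0 CPM).

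**Figure D2:**
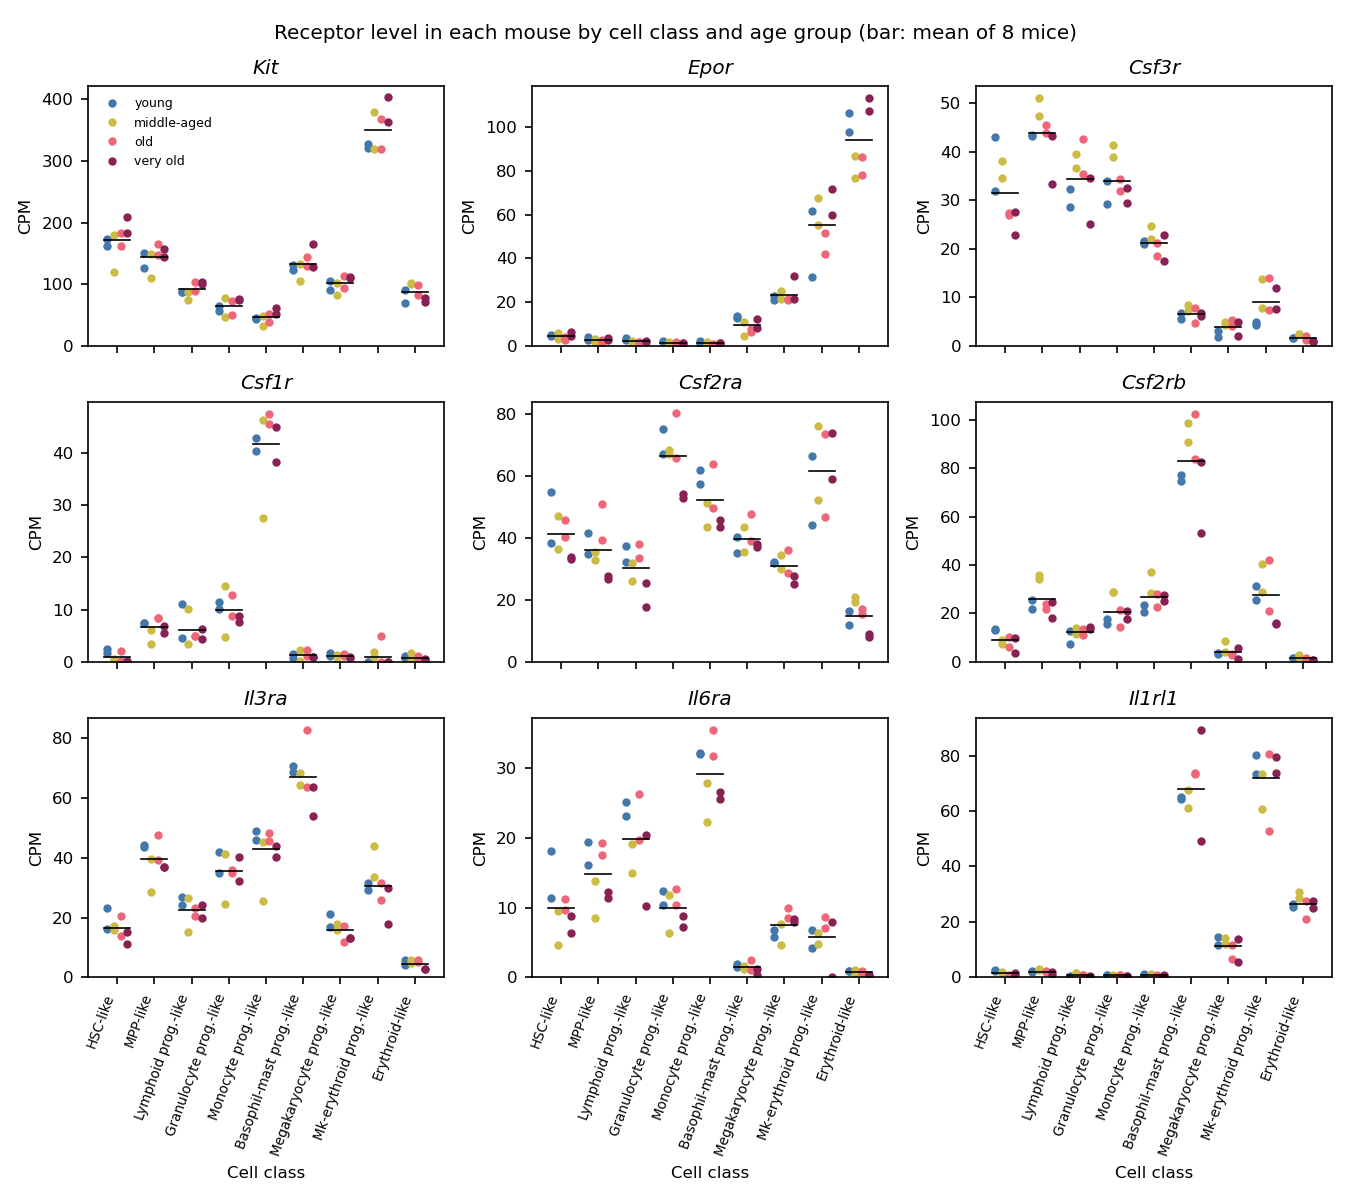
Level of each receptor in its classes for each of the 8 mice, in CPM of the class, with 1 point per mouse coloured by age group and a bar for the mean of the 8 mice. Csf2rb in basophil-mast cell progenitor-like cells spans 53.1 to 102 CPM, above every other class, whereas for Csf2ra each class overlaps with the next in order of level.

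Receptors also varied within classes, between clusters, which again are descriptions. Some clusters of low depth had more Kit, and more of several other receptors, than a deeper cluster of their class in 8 of 8 mice. In MPP-like cells Kit was 311 CPM in cluster 6 and 123 in cluster 0 (depth 0.226 and 1.095 of that of their samples). Epor, Csf1r, Csf2ra, Csf3r and Il6ra were also higher in cluster 6 in 8 of 8 mice. Csf3r, for example, was 75.1 and 40.1 CPM. Il3ra was alike there, 39.1 and 39.7 CPM. In granulocyte progenitor-like cells Kit was 197 CPM in cluster 17 and 62.0 in cluster 4 (depth 0.295 and 1.75). Csf1r, Csf2ra, Csf2rb, Csf3r, Il3ra and Il6ra were also higher in cluster 17 in 8 of 8 mice. Epor and Il1rl1 were higher there in 7 and 5 of 8. Cluster 19 (depth 1.31) had less Kit than cluster 4. The part of depth in cluster levels was not tested. Within basophil-mast cell progenitor-like cells, cluster 24 (487 cells, 31 to 86 per mouse, led by the granule protease genes Gzmb and Cma1) stood against cluster 15 (1742 cells, led by the IgE receptor genes Ms4a2 and Fcer1a). Kit was 400 ± 129 CPM against 98.3 ± 13.2, Il1rl1 198 ± 75.9 against 51.7 ± 7.62, and Csf2rb 157 ± 28.5 against 73.7 ± 16.1, each higher in 8 of 8 mice. Il3ra did not follow, at 60.5 ± 15.7 against 67.9 ± 8.47 CPM and higher in 3 of 8 mice. The median depth of cluster 24 was 0.562 and that of cluster 15 was 1.15 of that of their samples.

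Among erythroid-like cells, cluster 12 (1886 cells, led by the blood group gene Rhd) had the most Epor, 204 ± 39.0 CPM, against 72.0 ± 15.3 in cluster 18 and 106 ± 13.1 in cluster 1, which also expressed haemoglobin. Kit was 203 ± 46.5 CPM in cluster 12, 104 ± 7.96 in cluster 18 and 63.8 ± 12.2 in cluster 1, and Il1rl1 was 51.8, 36.0 and 22.5 CPM in the same order. Cluster 12 was above either of the others in 8 of 8 mice for all 3 genes, and its median depth was 0.381 of that of its samples against 2.44 and 2.86. Csf2ra was also higher in cluster 12 than in cluster 1 in 8 of 8 mice, 18.9 and 8.86 CPM. It was alike in cluster 18, at 20.3 CPM.

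Within granulocyte progenitor-like cells, cluster 19 with the late granule genes S100a8, S100a9 and Camp had more Csf2ra than cluster 4 with the early genes Cebpe and Elane, 91.9 ± 19.9 against 54.4 ± 5.69 CPM in 8 of 8 mice. Kit (40.2 against 62.0 CPM), Csf2rb (12.5 against 20.6 CPM) and Il3ra (36.3 CPM in cluster 4) were lower in cluster 19 in 8 of 8 mice. Csf3r differed little, 36.1 ± 6.24 against 30.8 ± 4.07 CPM and higher in 6 of 8 mice. The low-depth cluster 17 of the same class had 89.0 CPM of Csf1r, a mean above that of monocyte progenitor-like cluster 5 (41.9 CPM), and 152 CPM of Csf2ra.

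In megakaryocyte progenitor-like cells, cluster 14 with the mitosis gene Nusap1 had more Il1rl1 than cluster 11, 18.4 ± 4.84 against 3.22 ± 1.25 CPM, and more Il3ra, 19.2 ± 2.94 against 12.2 ± 2.61 CPM, in 8 of 8 mice. Epor was alike in level, 23.1 ± 2.91 and 23.5 ± 4.98 CPM.

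Unnamed clusters also carried receptor UMIs. Cluster 3 (4012 cells, led by Clec4d and Csrp3, with Gata2 among its leading genes) had 173 CPM of Kit, 41.6 CPM of Epor and 38.6 CPM of Il1rl1, with Il6ra at 0.650 CPM. Cluster 23 (519 cells, led by the antigen presentation genes Cd74 and H2-Aa) had 150 ± 18.03 CPM of Csf2ra and 64.6 ± 12.9 CPM of Il6ra, above monocyte progenitor-like cluster 5 (49.3 and 29.2 CPM) in 8 of 8 mice, but 4.45 CPM of Csf1r against 41.9. Cluster 26 (225 cells, led by the eosinophil granule genes Prg2 and Epx) had 64.9 CPM of Il3ra, 51.3 CPM of Csf2rb and 57.5 CPM of Csf2ra.

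**Figure D3:**
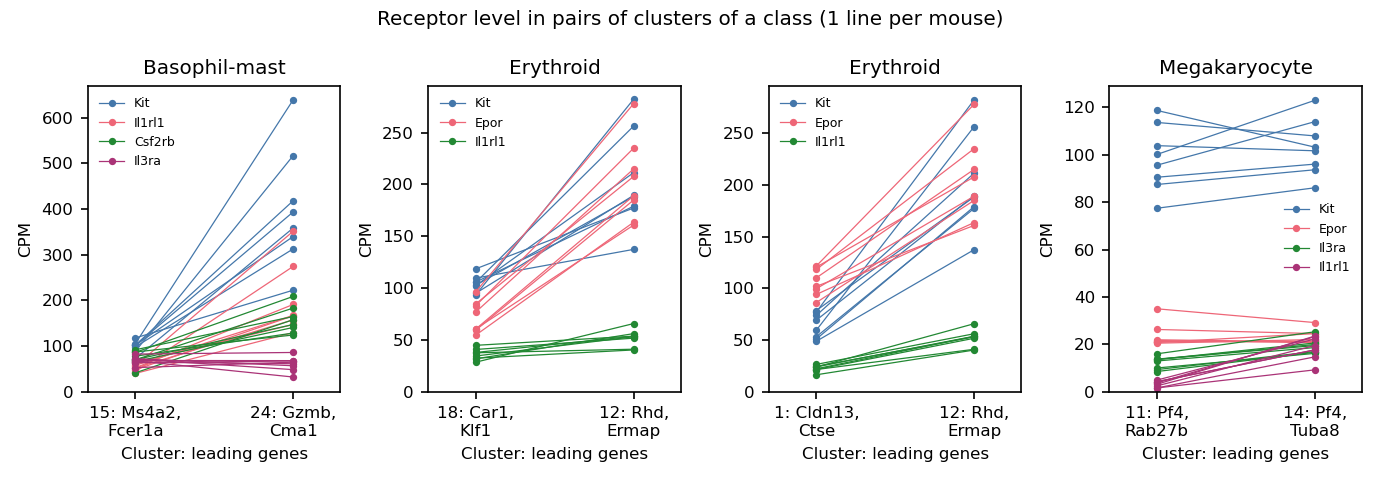
Receptor levels in pairs of clusters, in CPM, with 1 line per mouse and gene joining a cluster at the left to a cluster at the right, each named by its leading genes. Kit, Il1rl1 and Csf2rb were higher in cluster 24 than in cluster 15 in 8 of 8 mice, and Epor was higher in cluster 12 than in cluster 18 in 8 of 8 mice.

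Single cells seldom showed several of the 9 receptors at a depth of 3000 UMIs. The mean number detected per cell had a median of 0.732 over mice, and was 1.23 in the MEP-like class, 1.04 in basophil-mast cell progenitor-like cells and 0.555 in megakaryocyte progenitor-like cells. Epor and Il1rl1 were found together 2.04 times as often as the product of their shares over all cells, but 0.977 times within erythroid-like cells. Kit and Epor were together 1.04 times as often as that product within erythroid-like cells. The partners Csf2ra and Csf2rb stood at 1.11 times within granulocyte progenitor-like and 1.15 times within monocyte progenitor-like cells, and Il3ra and Csf2rb at 1.36 and 0.670 times in the same classes and 0.994 times within basophil-mast cell progenitor-like cells. These ratios are medians over mice, rest on sparse counts and have no test.

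Over all cells, levels moved with the mix of lineages. Erythroid-like cells made up 15.4 to 31.3% of the cells of a mouse, and Epor over all cells was 36.8 CPM in the young male, 53.1 in the young female, 20.3 and 32.7 in the middle-aged male and female, 24.3 and 25.8 in the old, and 62.8 and 51.5 in the very old. Its coefficient of variation over 8 mice was 40.6%, and it was 14.8% once every mouse was given the same mix of classes, the mean share of UMIs of each class over the 8 mice. The same weighting lowered the coefficient from 34.0 to 20.1% for Csf2rb and from 26.8 to 13.4% for Csf3r, and from 8.72 to 7.35% for Kit. The log2 ratio of middle-aged to young mice moved from -0.76 to -0.31 for Epor, from 0.83 to 0.56 for Csf2rb and from 0.58 to 0.31 for Csf3r, but it moved away from 0 for Il3ra, from -0.05 to -0.25, and for Il6ra, from -0.28 to -0.42. Log2 ratios of older to young mice lay between -0.21 and 0.11 for the 9 genes over all cells. With weighting they lay between -0.17 and 0.11. These ratios pool the old and very old mice, which could differ. Weighted Epor was 38.9 and 42.1 CPM in the young male and female. It was 30.8 and 33.9 CPM in the old and 44.9 and 41.3 CPM in the very old.

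**Figure D4:**
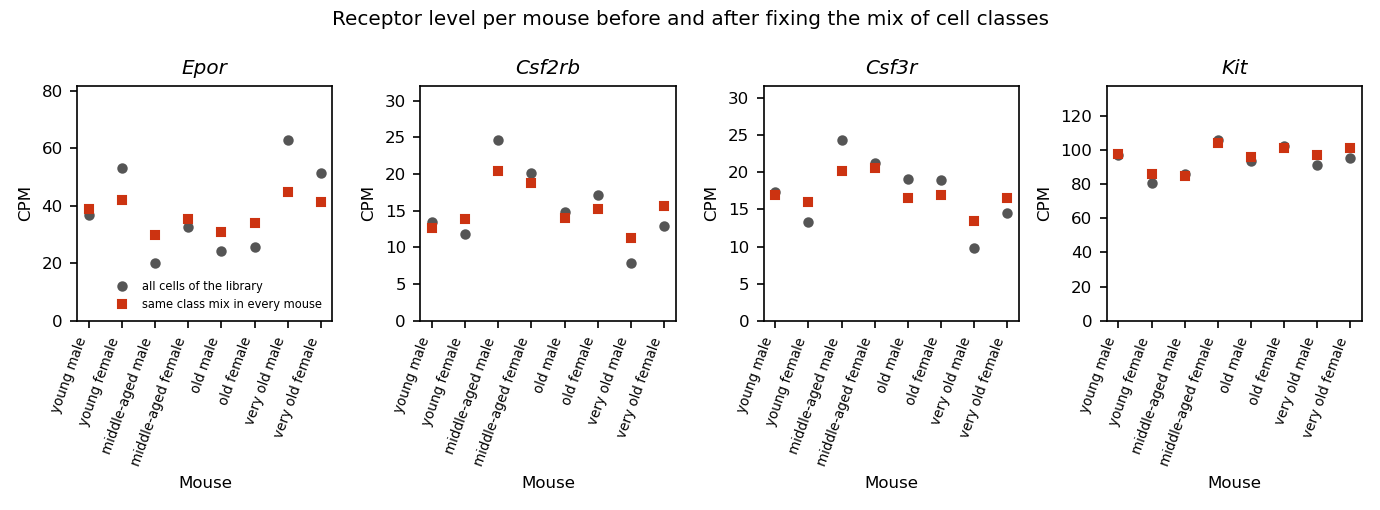
Level of Epor, Csf2rb, Csf3r and Kit in each of the 8 mice, in CPM, over all cells (circles) and with the same mix of classes in every mouse (squares). The spread of Epor over the 8 mice narrows from a coefficient of variation of 40.6% to 14.8%.

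To ask whether receptor transcripts change with age, older mice were set against young mice with edgeR's quasi-likelihood test, with a sex term and Benjamini-Hochberg adjustment over all genes tested. Over all cells, 0 of the 9 receptors passed an adjusted p of 0.05, where 1.21% of 15361 genes did, and DESeq2 also called 0. In edgeR 1 receptor had an unadjusted p under 0.05, where 1803 of the 15361 genes did. That 1 was Il1rl1 (15.4 and 17.2 CPM in the young male and female, 10.8 and 13.3 in the old, 15.6 and 16.8 in the very old), with a log2 fold change of -0.22 (SE 0.07, edgeR adjusted p = 0.25). Without both very old mice it was -0.47 and passed (edgeR adjusted p = 0.048). Within classes, 0 of 72 tests of a receptor in a class passed with either tool, 8 had an unadjusted p under 0.05 in edgeR and 1 in DESeq2, and 1.96% of all 100195 gene-by-class tests were called. The share of all genes with such a p in edgeR ran from 501 of 11551 in granulocyte progenitor-like to 3049 of 11504 in HSC-like cells. The 8 are therefore no result about receptors. Log2 fold changes ran from -0.81 to 0.72 with a median SE of 0.16, and changes of nearly 3 times their own SE did not pass with 4 against 2 mice.

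The directions were uneven between receptors. Kit was higher in older mice in 9 of 9 classes, by 0.07 to 0.25 on the log2 scale, and Il3ra was lower in 9 of 9, by -0.43 to -0.04. Csf2ra was lower in 7 of 9 classes, Il6ra and Il1rl1 each in 6 of 7, Csf1r in 5 of 6, Epor in 5 of 8 and Csf2rb in 5 of 9, and Csf3r was split at 4 of 8. The classes come from the same mice and are not replicates, and none of these directions was a called change.

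HSC-like cells had the most genes called with age of the 9 classes, 12.4% of 11504, and 0 receptors among them. They made up 4.84% and 4.79% of the cells of the young male and female, 11.9% and 6.82% in the old and 10.1% and 6.05% in the very old, so the size of the class moved with age too, and its part in the levels was not tested. The lowest adjusted p of any receptor in older against young mice was there. Csf2rb was 13.7 CPM in the young male and 12.99 in the young female, 6.17 and 10.1 in the old male and female, and 3.59 and 9.85 in the very old male and female, on 20 to 49 UMIs per mouse. All 4 older mice were below both young mice, the very old male furthest. The log2 fold change was -0.81 (SE 0.28, edgeR adjusted p = 0.076).

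Csf3r in HSC-like cells gave 43.0 and 31.8 CPM in the young male and female, 27.5 and 26.9 in the old, and 22.8 and 27.6 in the very old. Again the older mice did not overlap the young, with a log2 fold change of -0.41 (SE 0.15, edgeR adjusted p = 0.098). Il6ra gave 18.1 and 11.4 CPM in the young, 11.2 and 9.58 in the old, and 6.28 and 8.76 in the very old, with a log2 fold change of -0.63 (SE 0.28, edgeR adjusted p = 0.17). Its highest older value lay just under the lower young value. Kit in the same cells was 173 and 162 CPM in the young, 184 and 163 in the old and 209 and 184 in the very old, beside 119 and 181 in the middle-aged male and female, with a log2 fold change of 0.24 (SE 0.14, edgeR adjusted p = 0.29). Single libraries moved these values in both directions. Without the young male the log2 fold change was -0.40 for Csf2rb, -0.16 for Csf3r and -0.07 for Il6ra, and without the young female it was -1.21, -0.59 and -1.06, with none of these 6 values passing. Without the very old male it was -0.55 for Csf2rb and -0.28 for Csf3r. Without the very old female, Csf2rb (-1.15, edgeR adjusted p = 0.015) and Csf3r (-0.54, edgeR adjusted p = 0.038) passed, and without the middle-aged male, Kit passed (0.26, edgeR adjusted p = 0.049).

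In the other classes the share of genes called with age was 0% in erythroid-like, 0.026% in granulocyte progenitor-like, 0.0934% in monocyte progenitor-like, 0.114% in basophil-mast cell progenitor-like, 0.205% in MEP-like, 0.225% in lymphoid progenitor-like, 1.05% in MPP-like and 2.97% in megakaryocyte progenitor-like cells, again with 0 receptors called in each. Epor in erythroid-like cells had a log2 fold change of -0.07 (SE 0.07, edgeR adjusted p = 0.95). The largest erythroid-like cluster was cluster 1 in the young mice (35.9% of the class) and in the very old mice (50.1%), and the low-depth cluster 8 in the middle-aged (27.5%) and old mice (27.6%), so the make-up of that class moved with age beside its Epor level, and its part in that level was not tested.

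**Figure D5:**
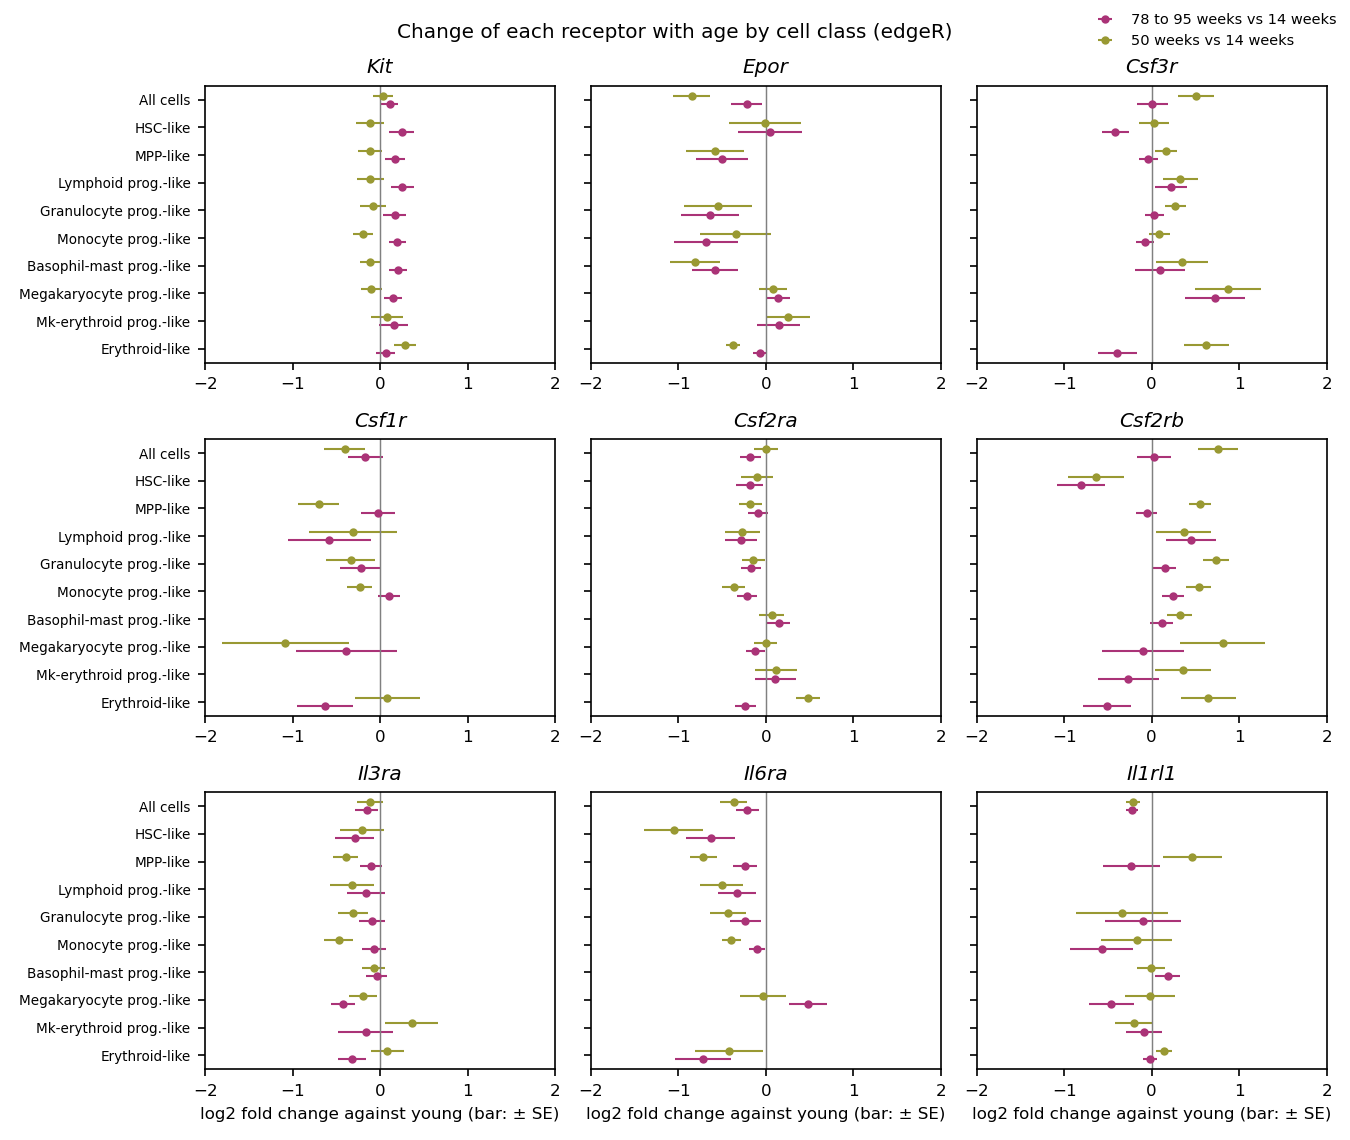
Log2 fold change of each receptor against young mice (14 weeks) in older mice (78 to 95 weeks) and middle-aged mice (50 weeks), over all cells and in each class where it was tested, with bars for the SE derived from the edgeR F statistic. In older mice Kit lies above 0 and Il3ra below 0 in 9 of 9 classes, and 0 of 72 tests passed an adjusted p of 0.05.

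Some other receptors were called in HSC-like cells. Of 40 other cytokine and growth factor receptor genes, 31 were tested there, 5 rose and 4 fell, where 12.4% of all genes were called, with a median log2 fold change of -0.08 beside -0.03 over all genes. The list was chosen with earlier results of these data known, so its share of calls is no result about receptors. Flt3, the receptor of early multipotent and lymphoid progenitors, was 164 and 94.7 CPM in the young male and female, 27.9 and 39.1 in the old, and 13.6 and 28.5 in the very old, a log2 fold change of -2.22 (SE 0.24, edgeR adjusted p = 9.6e-05). Ghr, the growth hormone receptor, rose by 1.82 (SE 0.34), and the IL-1 receptor Il1r1 and the IL-17 receptor Il17ra fell by 0.96 (SE 0.27) and 0.92 (SE 0.15), with edgeR adjusted p-values of 0.0046, 0.037 and 0.0017. Il6st, the partner of Il6ra, also rose, by 0.74 (SE 0.19, edgeR adjusted p = 0.024), from 10.8 and 9.02 CPM in the young to between 14.0 and 16.6 CPM in the older mice. Over all cells Osmr and Ghr rose, with Osmr listed at 0 UMIs in both young mice and at most 0.221 CPM in the others.

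Ligands were mostly too low to test. Of 18, 4 were tested in HSC-like cells, and 1 rose, Csf1, the ligand of Csf1r, by 1.05 on the log2 scale (SE 0.29, edgeR adjusted p = 0.031), from 3.82 and 3.71 CPM in the young to between 6.29 and 8.28 CPM in the older mice. Of 44 genes of receptor signalling, 42 were tested and 4 rose and 2 fell, with a median log2 fold change of 0.03. That share of calls is close to the 12.4% of all genes and is no result about the list. The feedback inhibitor Socs3 rose by 1.93 (SE 0.46, edgeR adjusted p = 0.017) and the kinase gene Pim2 by 1.03 (SE 0.25, edgeR adjusted p = 0.019), whereas Myc fell by 0.96 (SE 0.21, edgeR adjusted p = 0.0094) and the kinase gene Syk by 0.88 (SE 0.13, edgeR adjusted p = 0.00095).

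Whether a change with age was particular to HSC-like cells was asked by testing the difference between its change there and in each of 8 other classes, with the mouse as a block. Of 69 such tests of the 9 receptors, 2 passed, where 2.83% of all 99705 tests did, and 17 had an unadjusted p under 0.05. The share of all genes with such a p ran from 1018 of 11405 against MEP-like to 2072 of 12661 against MPP-like cells. DESeq2 called 0, with 21 tests left without an adjusted p. Il6ra differed from megakaryocyte progenitor-like cells by -1.11 on the log2 scale (SE 0.26, edgeR adjusted p = 0.017), where 3.98% of genes were called. In megakaryocyte progenitor-like cells Il6ra was 6.78 and 5.76 CPM in the young, 9.97 and 8.46 in the old and 7.88 and 8.29 in the very old, all older mice above both young mice, but its own change there did not pass (0.48, SE 0.22, edgeR adjusted p = 0.32). Csf2rb differed from monocyte progenitor-like cells by -1.02 (SE 0.28, edgeR adjusted p = 0.046), where 3.28% of genes were called. Its monocyte progenitor-like levels were 20.5 and 23.5 CPM in the young, 22.8 and 28.2 in the old and 24.98 and 27.5 in the very old. When 1 mouse was left out in turn the number of such calls ran from 0 to 10, and it was 0 without either young mouse or without the very old male, so neither call held against leaving out single libraries. It was 10 without the old female and 7 without the very old female.

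Over all cells, middle-aged mice, 2 against the same 2 young mice, gave 0 of 9 receptor calls in edgeR, where 0.397% of all genes were called, and 5 receptors had an unadjusted p under 0.05. Of all 15361 genes, 2532 had such a p. The log2 fold change was -0.85 for Epor (SE 0.21, edgeR adjusted p = 0.12) and 0.76 for Csf2rb (SE 0.22, edgeR adjusted p = 0.16), and DESeq2 called these 2. It called 700 of the 15361 genes tested. Csf2rb was also called by edgeR when 1 of the very old mice, male or female, was left out, but not when both were. Middle-aged mice gave 0 of 72 calls within classes, where 0.571% of all tests were called, and 17 had an unadjusted p under 0.05 in edgeR. The share of all genes with such a p ran from 467 of 8274 in MEP-like to 2134 of 11782 in monocyte progenitor-like cells. DESeq2 called 1, Epor in erythroid-like cells, with 6 tests left without an adjusted p. Csf2rb was higher in 8 of 9 classes and lower only in HSC-like cells, by -0.63. Csf3r was higher in 8 of 8, and Il6ra was lower in 7 of 7. Kit was lower in 7 of 9 classes, whereas it was higher in 9 of 9 in older mice, with 0 of these tests called at either age. The middle-aged male had the lowest Kit of all mice in 8 of 9 classes and the middle-aged female in 0. Over all cells these 2 mice had 85.6 and 106 CPM of Kit. The middle-aged male also had the lowest Il6ra of all mice in 6 of 9 classes. In granulocyte progenitor-like cells Csf2rb was 15.5 and 17.7 CPM in the young and 29.0 and 28.9 in the middle-aged male and female, a log2 fold change of 0.74 (SE 0.15, edgeR adjusted p = 0.075). The old and very old mice, with 14.3 to 21.3 CPM, were below both middle-aged mice. Il6ra in MPP-like cells was 16.1 and 19.4 CPM in the young and 8.43 and 13.8 in the middle-aged male and female (log2 fold change -0.71, SE 0.16, edgeR adjusted p = 0.057). Il6ra in HSC-like cells was 4.63 and 9.44 CPM in the middle-aged male and female, both below both young mice (log2 fold change -1.05, SE 0.34, edgeR adjusted p = 0.14), and ran from -1.63 to -0.48 when 1 mouse was left out in turn. Epor in erythroid-like cells gave -0.37 (SE 0.08, edgeR adjusted p = 0.079). Leaving out 1 mouse in turn gave 0 to 12 calls, the 12 without the middle-aged female, which leaves the middle-aged male alone in its group and assumes that it varies like the others.

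Some genes of the signalling and receptor lists were called at this age. In HSC-like cells, where 2.09% of all genes were called, 2 of 42 signalling genes rose and 1 fell, and 1 of 31 other receptors rose and 2 fell. In granulocyte progenitor-like cells, where 0.0779% were called, 1 of 42 and 1 of 27 rose. In the other 7 classes 0 to 3 signalling genes and 0 or 1 other receptor were called. Monocyte progenitor-like cells had 3 and 1, where 1.19% of all genes were called. MPP-like cells had 2 and 0 (0.875%) and lymphoid progenitor-like cells 1 and 0 (0.254%). The rest had 0, with 0.0638 to 0.205% of all genes called. Pim1, a kinase gene that STAT5 switches on, rose in granulocyte progenitor-like cells from 16.9 and 27.1 CPM in the young to 83.0 and 101 CPM in the middle-aged mice (log2 fold change 2.01, SE 0.15, edgeR adjusted p = 4.8e-05), while the older mice had 25.1 to 40.9 CPM. It also rose in HSC-like (1.12, SE 0.16), MPP-like (1.39, SE 0.19), lymphoid progenitor-like (1.37, SE 0.22) and monocyte progenitor-like cells (1.88, SE 0.19). In HSC-like cells Pim1 was also higher in older than in young mice (0.59, SE 0.14, edgeR adjusted p = 0.018). Socs3 rose by 2.99 (SE 0.46, edgeR adjusted p = 0.0047) in HSC-like cells, from 4.14 and 2.92 CPM in the young to 42.8 in the middle-aged male and 13.6 in the middle-aged female. Flt3 fell there by 1.81 (SE 0.28, edgeR adjusted p = 0.0053). Tfrc, the transferrin receptor, rose in granulocyte progenitor-like cells by 1.10 (SE 0.12, edgeR adjusted p = 0.0022).

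Between the sexes, 4 mice against 4, 0 of 72 receptor tests were called, where 0.371% of all tests were, with 13 at an unadjusted p under 0.05 in edgeR and 2 in DESeq2, which called 0 and left 14 tests without an adjusted p. The share of all genes with such a p in edgeR ran from 647 of 10238 in lymphoid progenitor-like to 2014 of 11782 in monocyte progenitor-like cells. Csf1r was higher in females in 6 of 6 classes, Il6ra in 7 of 7 and Kit in 8 of 9. The lowest adjusted p was that of Kit in monocyte progenitor-like cells, with a log2 fold change of 0.29 (SE 0.08, edgeR adjusted p = 0.13). The middle-aged male had the lowest Kit of the 8 mice in 8 of 9 classes and the lowest Csf1r and Il6ra in 6 of 9 each. The directions without that mouse are not reported here.

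The genes whose level over 74 sums of 1 class in 1 mouse was most like that of each receptor were listed among 9536 genes, by Pearson's r of log2(CPM + 1), as a description. The sums share libraries and classes and are not independent. Epor was most like Aqp1 (r = 0.97), a water channel of red cells, then Ces2g and Tspo2, although Aqp1 was among the markers used to name the erythroid class. Csf1r was most like Ly86 (0.92), Ccr2 and the monocyte factor Irf8, although those were used to name the monocyte class. Il1rl1 was most like Tango2 (0.96), Slc45a3 and Icam4, Csf3r like Tmem173 (0.93), Gpr65 and Kcnk12, and Il3ra like Rin3 (0.94), Fes and Igfbp4. Il6ra was most like Arap2 (0.93) and Unc93b1, with its signalling partner Il6st in the third place (0.87). Kit was most like Krit1 (0.94), 6430590A07Rik and Kidins220, and Csf2ra, the flattest, like Cd300a (0.88), Slc8b1 and Asah1. Csf2rb had Ly6e (0.88) and Fut7 among its 3 most similar genes.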

How the data were processed

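Per the labels, marrow cells sorted as lineage-negative and c-Kit positive from each of 8 mice were captured on the 10x Genomics Chromium platform, with kit versions given differently between sources, and the authors counted reads with Cell Ranger against mm10. The matrix headers and the study's methods name different Cell Ranger versions, and whether intronic reads were counted is not given in the sources used here. The deposited matrices hold raw UMI counts per gene and barcode. The kind of doublet removal upstream is not given in the sources used here.

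Cells with at least 200 detected genes were kept, as in the study's methods. Scanpy 1.11.5 and leidenalg 0.10.2 clustered them (2000 variable genes, 30 components, a Harmony correction written for this work, resolution 0.8) without the receptors and listed genes, and clusters were named from marker genes. UMIs were summed per mouse and class. Classes with at least 50 cells in each mouse were tested with edgeR 4.0.16 (TMM, filterByExpr, quasi-likelihood) with age group and sex over all 8 mice and an adjusted p threshold of 0.05. The SE given with edgeR values was derived as the absolute log2 fold change over the square root of the F statistic. DESeq2 1.42.0 was an alternative. The script was tested on simulated data. Mice are separate animals, and p-values measure the spread between these libraries. CPM in member levels is UMIs over the class sum, without TMM. Doublets were kept, and removed as an alternative by the Scrublet call in 4 libraries. In the other 4, both middle-aged mice among them, Scrublet called 1 or 2 cells, and the top-scoring expected share (334 to 509 cells) was removed instead. The members and gene lists were chosen with earlier results of these data known. Named beside the 9 receptors were up to 4 called genes of each list with the largest absolute log2 fold change in a comparison, and for each receptor the 3 genes of most similar pattern with a mean of at least 5 CPM. Il6st and the Pim1 and Tfrc values in further classes were added after their values were seen. Some genes that the rule names are not reported here.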

Additional observations from a re-analysis of the deposited data

Results flagged for a closer look

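Among the 4 older mice, 4 of 81 sets had 1 sample far from the others by Dixon's ratio (gap to the nearest sample over the whole range). A set was a receptor in a class where it was tested, or over all cells. Chance flags about 1 in 20 such sets. Epor in megakaryocyte progenitor-like cells was 31.9 CPM in the very old male against 21.2 CPM in the nearest mouse (ratio 0.988). Kit in megakaryocyte progenitor-like cells was 93.6 CPM in the old female, below the other 3 (ratio 0.891). Kit in granulocyte progenitor-like cells was 50.5 CPM in the old male against 73.1 CPM in the nearest mouse (ratio 0.861). Csf3r in HSC-like cells was 22.8 CPM in the very old male against 26.9 CPM in the nearest mouse (ratio 0.854).

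The test of the difference in age change between HSC-like cells and another class called 2 of 69 receptor tests, where 2.83% of all tests were called. The Il6ra change minus its change in megakaryocyte progenitor-like cells was -1.11 on the log2 scale, and the Csf2rb change minus its change in monocyte progenitor-like cells was -1.02. DESeq2 called neither and left the Il6ra test without an adjusted p. Both calls were lost when certain single libraries were left out, while the differences stayed negative, from -1.32 to -0.87 for Il6ra and from -1.37 to -0.74 for Csf2rb.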

How the results depend on the processing

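The number of receptor calls with age over all cells was 0 in the main test and 1 without the very old mice (Il1rl1), and within classes it was 0 and became 1 with no filter on low counts. For middle-aged against young mice over all cells it was 0, where 61 of 15361 genes were called. It became 2 with DESeq2 (700 of 15361 genes called) and 1 with no filter (Epor, 526 of 22521 genes called). It stayed 0 without both very old mice (123 of 15111 genes called). Within classes it was 0, and became 1 with DESeq2, 12 with no filter, 2 without the very old mice, 1 with cells of at least 1000 detected genes, 2 without Harmony and 1 at resolution 1.6. It was also 1 without the low-depth clusters, an alternative chosen after seeing the data. For the sexes it was 0, and 1 with no filter. For the difference from HSC-like cells it was 2, and became 0 with DESeq2, 10 with no filter, 1 without the very old mice, 1 without doublets, 0 without Harmony and 0 at resolution 0.4. Leaving out each mouse in turn gave 0 to 0 calls over all cells, 0 to 2 within classes, 0 to 12 for middle-aged mice, 0 to 0 for the sexes and 0 to 10 for the difference. The number of all genes called also moved with the setting, as the middle-aged counts over all cells show. These receptor counts alone therefore cannot tell a receptor change from a general one. The cause of these moves was not tested.

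No called receptor changed direction. Among uncalled ones, Epor in HSC-like cells turned to -0.28 without the very old mice and to -0.11 at resolution 0.4, and over all cells Csf1r (0.21), Csf2ra (0.21), Il3ra (0.15) and Il6ra (0.24) turned without the very old mice. With each mouse left out, log2 fold changes in HSC-like cells ran from -1.21 to -0.40 for Csf2rb, -0.59 to -0.16 for Csf3r, -1.06 to -0.065 for Il6ra, -0.12 to 0.19 for Epor, -0.42 to 0.13 for Csf2ra and -0.57 to 0.082 for Il3ra, and over all cells from -0.057 to 0.29 for Kit, -0.44 to 0.011 for Epor, -0.43 to 0.12 for Csf1r, -0.20 to 0.23 for Csf2rb, -0.20 to 0.22 for Csf3r, -0.36 to 0.068 for Il3ra and -0.44 to 0.043 for Il6ra. The 2 called differences ran from -1.32 to -0.87 for Il6ra and from -1.37 to -0.74 for Csf2rb.

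The class with the highest level was the same for 9 of 9 receptors with 1000 detected genes and without doublets, for 8 at resolution 1.6, for 7 without Harmony, for 6 at resolution 0.4, where only 6 classes were named, and for 7 without the low-depth clusters, where Kit was highest in HSC-like and Il1rl1 in basophil-mast cell progenitor-like cells. No paired analysis was possible because each mouse has 1 age and the labels carry no replicate numbers, beyond the sex term of the age tests and the mouse as a block in the difference between classes. Low counts limit Csf2rb and Il6ra in HSC-like cells, which had 20 to 49 and 25 to 69 UMIs per mouse.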
